A study of Homo sapiens with 36 samples.

Results

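The genes described here are 9 regulators that feed back on signalling through the kinase ERK and the epidermal growth factor receptor, EGFR: DUSP1, DUSP4, DUSP5, DUSP6, SPRY2, SPRY4, SPRED1, ERRFI1 and HBEGF. They were chosen by symbol, with earlier results of these data known. 8 of the 9 had a row among the 15186 genes of the deposited count table, and all 8 passed the filter on low counts. DUSP4 was not analysed here.

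EGFR is a receptor tyrosine kinase that activates RAS, RAF, MEK and then ERK, a kinase that enters the nucleus and induces immediate early genes. Several of those genes encode proteins that act back on the pathway: dual-specificity phosphatases remove the activating phosphates from ERK and related kinases, Sprouty and Spred proteins act between the receptor and RAF, and ERRFI1 binds the EGFR kinase domain and inhibits it. HBEGF encodes a membrane-anchored EGFR ligand that is released by metalloproteinases and so drives the receptor again. Glucocorticoids are known to induce DUSP1 in many cell types, where its product inactivates p38, JNK and ERK.

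The study used U2OS, a human osteosarcoma cell line, stably transfected with the alpha form of the glucocorticoid receptor (GR). Cells received one of 6 siRNA combinations: siHic5siNS (against Hic-5, encoded by TGFB1I1), siCHD9siNS (against the chromatin remodeller CHD9), siBRMsiNS (against BRM, the ATPase encoded by SMARCA2), siCHD9siHic5, siBRMsiHic5, or the non-silencing control siNSsiNS. The medium was low-glucose DMEM with 5% FBS in all of them. At 48 h after transfection the cells were given 100 nM dexamethasone (dex), a synthetic glucocorticoid, or an equal amount of its solvent ethanol, for 8 h. Each of the 12 groups had 3 biological replicates, performed on different days, so there were 36 libraries of total RNA. All groups carry the same transfected receptor and the same line, and the labels do not say whether the line is 1 clone.

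The libraries held 27442282 to 47148257 counts. Levels are given in the usual CPM unit, a gene's count relative to its library's total after upper-quartile scaling. In vehicle, TGFB1I1 was lower than in siNSsiNS cells by 2.01 ± 0.24 on the log2 scale (SE) with siHic5siNS and SMARCA2 by 1.79 ± 0.18 with siBRMsiNS (edgeR quasi-likelihood test, adjusted p = 1.47e-07 and 9.78e-07). CHD9 differed by -0.56 ± 0.18 with siCHD9siNS (adjusted p = 0.0194) but by 0.47 ± 0.18 in the libraries labelled siCHD9siHic5 (adjusted p = 0.0292), which is higher than in siNSsiNS cells and goes against that label. TGFB1I1 in the libraries labelled siCHD9siHic5 and siBRMsiHic5, and SMARCA2 in those of siBRMsiHic5, are not given here, so depletion there is not shown. NR3C1, which encodes GR, spanned 65 to 99.3 CPM in dex and 70.1 to 138 CPM in vehicle. With dex, the known GR targets TSC22D3 and FKBP5 were called higher in 6 of 6 siRNA conditions. Of the markers of the line's origin, 5 of 6 mesenchymal genes had a row and summed to 4690 to 14200 CPM over the libraries. Blood markers (1 of 4 with a row) summed to 1.59 to 7.09 CPM and endothelial markers (3 of 3) to 1.09 to 13.6 CPM, while 4 of 5 epithelial markers summed to 215 to 837 CPM. That sum is mostly the keratin genes KRT8 (110 to 414 CPM in dex, 86.2 to 362 in vehicle) and KRT18 (103 to 455 and 124 to 447). EPCAM spanned 1.85 to 4.11 CPM in dex and 1.69 to 4.84 in vehicle, and CDH1 0.222 to 1.56 and 0.487 to 1.9. In such bulk samples, fewer cells that express a gene and less of its RNA per cell cannot be told apart.

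The promoters of 3 of the genes are shown because dex lowered HBEGF, and because DUSP1 and SPRY2 moved in the siRNA comparisons. They are the 250 bases before the transcription start on the minus strand, 5′ to 3′, from the RefSeq promoter table of GRCh38.p14, which held 7 of the 9 genes. Capitals mark matches to the motifs named below.
DUSP1 (chr5:172771196-172771445): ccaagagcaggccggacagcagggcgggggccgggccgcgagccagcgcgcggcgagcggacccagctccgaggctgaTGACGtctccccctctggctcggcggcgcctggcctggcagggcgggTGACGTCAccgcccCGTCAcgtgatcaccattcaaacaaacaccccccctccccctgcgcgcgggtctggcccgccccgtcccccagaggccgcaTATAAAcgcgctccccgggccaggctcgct
SPRY2 (chr13:80341127-80341376): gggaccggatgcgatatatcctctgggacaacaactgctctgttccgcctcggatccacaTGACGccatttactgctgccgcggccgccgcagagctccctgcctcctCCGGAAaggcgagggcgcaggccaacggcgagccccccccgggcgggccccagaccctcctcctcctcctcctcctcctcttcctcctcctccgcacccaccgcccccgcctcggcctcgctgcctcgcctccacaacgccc
HBEGF (chr5:140346604-140346853): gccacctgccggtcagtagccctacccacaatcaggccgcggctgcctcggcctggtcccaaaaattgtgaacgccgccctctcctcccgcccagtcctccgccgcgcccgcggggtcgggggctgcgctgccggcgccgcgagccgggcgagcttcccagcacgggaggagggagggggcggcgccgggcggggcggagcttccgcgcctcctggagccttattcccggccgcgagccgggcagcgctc

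Both strands of the 250 bases before and 50 after each start were searched for the cyclic AMP response element CRE (TGACGTCA), its core TGACG, the AP-1 site TGANTCA, the ETS site CCGGAA, the CArG box bound by serum response factor, the TATA box TATAAA, the GR-binding hexamer AGAACA and the palindromic GR element made of that hexamer, 3 free bases and its inverse. The DUSP1 window held a complete CRE whose first base lies at position -125 from the start, a letter string found in 1.85% of the 35116 promoters of the table, and a TATAAA at position -30 (11.5% of promoters). It held TGACG at 4 places in all, of which the CRE contributes one on each strand; 24.6% of promoters held that core. The SPRY2 window shown, the first of 3 that the table gives for this gene, held TGACG at position -190 and CCGGAA at -142 (17.2% of promoters). Its other 2 windows each held the GR hexamer, as did 14.8% of promoters. No searched motif was in the HBEGF window, of whose printed bases 28 lie in an annotated GENCODE v29 exon on the same strand. The AP-1 site (7.71% of promoters), the CArG box (1.29%) and the palindromic GR element (0.00285%) were in none of the members' windows. DUSP1, SPRY4 and HBEGF all lie on the long arm of chromosome 5 (GRCh38.p14, chr5:172768096-172771195, chr5:142310430-142325021 and chr5:140332843-140346603), DUSP5 at chr10:110497907-110511533, DUSP6 at chr12:89347235-89352501, SPRY2 at chr13:80335976-80341126, SPRED1 at chr15:38252836-38357249 and ERRFI1 at chr1:8011727-8026309. The data are counts over whole genes and do not show which start was used.

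The libraries of a group were not alike for these genes, and this bears on every test below. In vehicle, DUSP1, DUSP5, SPRY4, ERRFI1 and HBEGF were each highest in the library numbered 2 in the siHic5siNS, siCHD9siNS, siCHD9siHic5 and siNSsiNS groups, and in the library numbered 1 in the siBRMsiNS and siBRMsiHic5 groups. SPRY2 followed the same order except with siBRMsiHic5, where the library numbered 3 was highest. The immediate early genes EGR1 and FOSL1, which encode ERK-induced transcription factors, were highest in the same vehicle libraries as the first 5 genes. PHLDA1, another ERK-responsive gene, was not: it was highest in the vehicle library numbered 1 in 5 of 6 conditions, and in the one numbered 2 with siHic5siNS. DUSP5 shows the size of it: the siNSsiNS vehicle libraries held 35.9, 146 and 23 CPM. Pooled over the groups of a treatment (root of the mean variance), the SD within a group on the log2 scale was 0.58 in dex and 1.18 in vehicle for DUSP5. The vehicle value lies at the 99.9th percentile of the genes tested. The same SD was 0.71 and 1.07 for SPRY4, 0.44 and 0.80 for HBEGF, 0.24 and 0.81 for DUSP1, 0.42 and 0.75 for SPRY2 and 0.19 and 0.54 for ERRFI1, in dex and in vehicle, against a median over all genes of 0.22 in both treatments. SPRED1 (0.28 in dex and 0.21 in vehicle) and DUSP6 (0.25 and 0.30) were closer to that median, with DUSP6 at the 74th percentile in vehicle. DUSP6 held 0.76 to 2.59 CPM in vehicle, and at such levels the pseudocount of 0.5 CPM narrows the log2 spread. The genes with wide vehicle spread also deviated together. Over the 18 vehicle libraries, Pearson's r between their deviations from the group means lay between 0.73 (DUSP1 with SPRY4) and 0.96 (DUSP5 with ERRFI1) for the 15 pairs of these genes. Over the 18 dex libraries it lay between 0.20 (DUSP1 with ERRFI1) and 0.84 (SPRY2 with HBEGF). ERRFI1 differed most between the treatments, with r of 0.32 in dex and 0.96 in vehicle with DUSP5, whereas DUSP5 with HBEGF gave 0.83 and 0.80, DUSP5 with SPRY2 0.83 and 0.94, and DUSP1 with SPRY4 0.82 and 0.73, in dex and in vehicle. DUSP6 did not follow the genes with wide vehicle spread. Its r with them lay between -0.50 (DUSP5) and -0.04 (HBEGF) in vehicle and between -0.34 (SPRY4) and 0.06 (ERRFI1) in dex. For SPRED1 it lay between 0.06 (DUSP1) and 0.39 (HBEGF) in vehicle and between -0.28 (DUSP1) and 0.67 (ERRFI1) in dex. This is a description: the libraries of a group share its mean, libraries with the same number may share a day, and what separates the high libraries from the others was not tested.

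**Figure D1:**
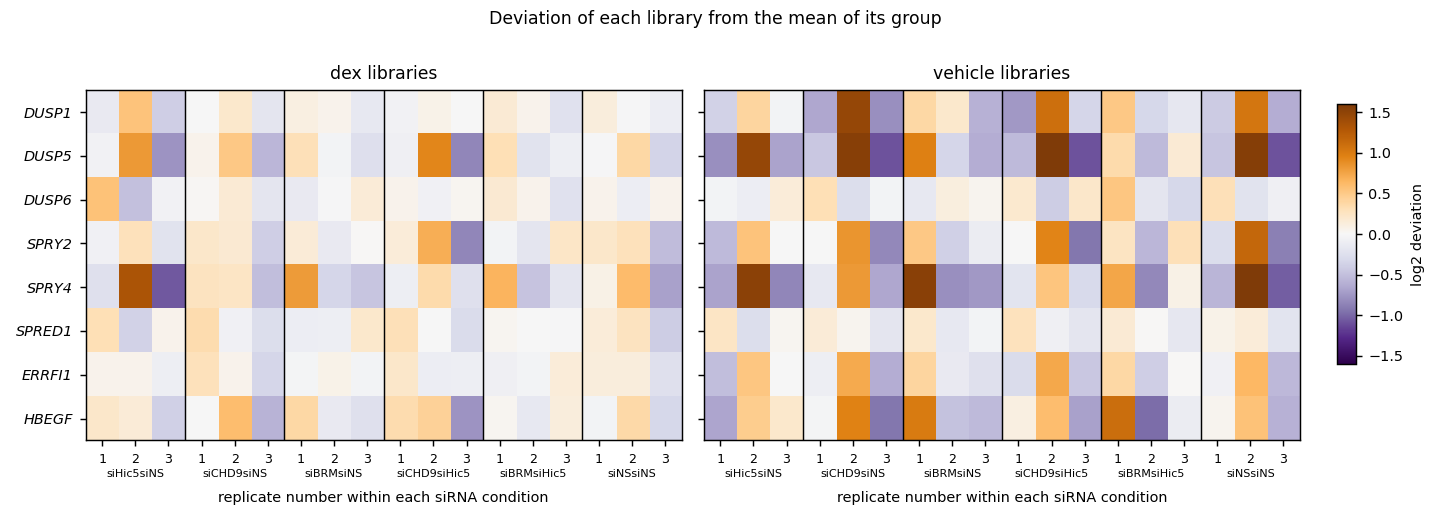
Deviation of each library's log2 level from the mean of its group (colour, log2 units) for the 8 genes in rows and the 3 replicates of each siRNA condition in columns, dex libraries on the left and vehicle libraries on the right. In vehicle, DUSP1, DUSP5, SPRY4, ERRFI1 and HBEGF are highest in replicate 2 of 4 conditions and in replicate 1 of the 2 conditions with BRM siRNA.

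The first question was whether 8 h of dex changed the feedback genes. HBEGF, the ligand, was lower in dex in all 18 vehicle-dex pairs of the same siRNA condition and number, by 0.31 to 2.26 on the log2 scale. With siHic5siNS it held 23.4, 22.5 and 15.2 CPM in dex and 35.2, 78.4 and 65.1 CPM in vehicle. With siBRMsiHic5 it held 32.8, 28.7 and 35.2 CPM in dex and 159, 37.4 and 68.4 CPM in vehicle. In both conditions the highest dex library lay below the lowest vehicle library. With siCHD9siNS it held 63.4, 96 and 42.6 CPM in dex and 99.1, 197 and 52.7 CPM in vehicle. With siBRMsiNS it held 50, 34.6 and 32.2 CPM in dex and 132, 46.6 and 45 CPM in vehicle. In the libraries labelled siCHD9siHic5 it held 74.4, 79.3 and 34.1 CPM in dex and 103, 144 and 58.3 CPM in vehicle. The dex and vehicle values of these 3 conditions overlap. With siNSsiNS HBEGF held 29, 38.8 and 23.7 CPM in dex and 50.4, 72.4 and 32.2 CPM in vehicle, and these overlap too.

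Fitted to all 12 groups with no term for the pair, the log2 fold change of HBEGF (dex over vehicle) was -1.55 ± 0.50 (SE) with siHic5siNS and -1.45 ± 0.50 with siBRMsiHic5, and neither passed over all genes (edgeR quasi-likelihood test, adjusted p = 0.242 and 0.48). With the pair as a block, which takes out what the 2 libraries of a number share, HBEGF fell by 1.50 ± 0.30 with siHic5siNS (adjusted p = 0.00276) and by 1.22 ± 0.29 with siBRMsiHic5 (adjusted p = 0.0152). The siBRMsiHic5 call rests on the pairs numbered 1 and 3: without pair 1 the value was -0.68 (adjusted p = 0.192) and without pair 3 it was -1.36 (adjusted p = 0.0525), whereas the siHic5siNS call held without any 1 of its pairs (largest adjusted p = 0.0486). DESeq2 without the block called neither (adjusted p = 0.158 and 0.353). In the other 4 conditions the blocked estimate lay between -0.67 ± 0.27 (siCHD9siNS, adjusted p = 0.0794) and -0.77 ± 0.28 (siBRMsiNS, adjusted p = 0.124), with siNSsiNS at -0.72 ± 0.29 (adjusted p = 0.258), and did not pass.

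Of the phosphatases, DUSP1 and DUSP5 went opposite ways in most pairs. DUSP1, which acts on p38, JNK and ERK, was higher in dex in 15 of 18 pairs, with log2 changes of -0.90 to 1.78. In the libraries labelled siCHD9siHic5 it held 56.6, 61.8 and 58.3 CPM in dex and 16.1, 59.1 and 21.5 CPM in vehicle. With siCHD9siNS it held 75.5, 87.9 and 66.7 CPM in dex and 32.3, 142 and 29.5 CPM in vehicle. With siNSsiNS it held 138, 125 and 117 CPM in dex and 84.9, 234 and 73.8 CPM in vehicle. In each of these conditions the dex libraries lay close together, and the vehicle library numbered 2 stood well above the other 2 vehicle libraries, level with or above dex. DUSP1 held 128, 122 and 106 CPM in dex and 96.4, 85.7 and 49.1 CPM in vehicle with siBRMsiNS, without overlap. The values were 153, 245 and 128 CPM in dex and 77.5, 133 and 96.9 CPM in vehicle with siHic5siNS. They were 172, 159 and 130 CPM in dex and 181, 102 and 114 CPM in vehicle with siBRMsiHic5. Both of these conditions overlap. The fitted log2 change was 0.87 ± 0.47 in the libraries labelled siCHD9siHic5 (1.07 ± 0.37 with the pair block, adjusted p = 0.123) and -0.05 ± 0.47 with siNSsiNS, and none of the 6 conditions passed.

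DUSP5, a nuclear phosphatase specific to ERK, was lower in dex in 17 of 18 pairs, with log2 changes of -2.18 to 0.05. With siCHD9siNS it held 42.9, 58.7 and 27.7 CPM in dex and 56.6, 223 and 35.5 CPM in vehicle. With siNSsiNS it held 24.1, 31.7 and 18.8 CPM in dex and 35.9, 146 and 23 CPM in vehicle. Its largest changes are in the pairs whose vehicle library was high, and the groups overlap. The blocked estimates were -0.91 ± 0.35 with siCHD9siNS (adjusted p = 0.0659) and -1.07 ± 0.37 with siNSsiNS (adjusted p = 0.168). DUSP6, the cytoplasmic ERK phosphatase, was the lowest in counts, at 24 to 91 per library. It spanned 0.866 to 2.47 CPM in dex (median 1.28) and 0.76 to 2.59 CPM in vehicle (median 1.24), and was higher in dex in 11 of 18 pairs.

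The adaptors and the receptor inhibitor gave no call in any condition. SPRY2, a Sprouty protein that also binds the ubiquitin ligase CBL, spanned 12.5 to 53.4 CPM in dex (median 20.8) and 11.6 to 88.7 CPM in vehicle (median 25.9) and was lower in dex in 12 of 18 pairs. SPRY4, a second Sprouty protein, spanned 1.9 to 17.7 CPM in dex (median 3.53) and 1.17 to 26.9 CPM in vehicle (median 3.89), and was lower in dex in 10 pairs. With siNSsiNS it held 4.99, 7.45 and 2.71 CPM in dex and 5.04, 24.8 and 3.5 CPM in vehicle, and the blocked estimate there was -0.91 ± 0.27 (adjusted p = 0.0949). SPRED1, which brings the RAS inactivator neurofibromin to the membrane, spanned 34.6 to 82.3 CPM in dex (median 53.4) and 36.1 to 71.6 CPM in vehicle (median 54.3). ERRFI1 spanned 50.1 to 117 CPM in dex (median 96.5) and 43.7 to 156 CPM in vehicle (median 86.2). Both were higher in dex in 11 of 18 pairs, SPRED1 by -0.45 to 0.31 and ERRFI1 by -0.98 to 0.55 on the log2 scale.

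**Figure D2:**
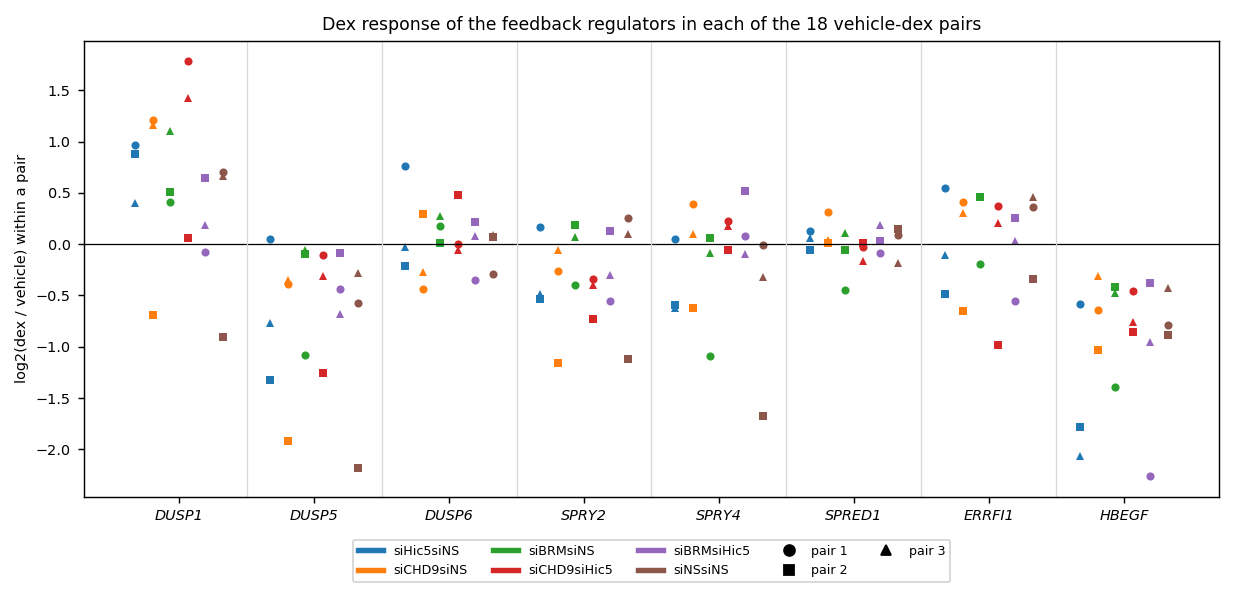
log2 ratio of dex over vehicle (vertical axis) in each of the 18 pairs of libraries with the same siRNA condition and number, for the 8 genes; colours are siRNA conditions and symbols are pair numbers. HBEGF lies below 0 in 18 of 18 pairs and DUSP5 in 17, while DUSP1 lies above 0 in 15.

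The calls among the members were few, as they were among all genes with no block. With no block, 0 of the 8 genes passed in any siRNA condition by edgeR, and 0 by DESeq2. An unadjusted p under 0.05 was reached by 1 of the 8 (HBEGF) with siHic5siNS, by 1 with siBRMsiHic5 and by 0 in each of the other 4. Over all 15179 genes it was reached by 893 with siHic5siNS and 645 with siBRMsiHic5. In the others it was reached by 380 (siNSsiNS) to 1493 (siCHD9siNS). The share of all 15179 genes called was 0.876% with siHic5siNS, 0.949% with siCHD9siNS, 0.382% with siBRMsiNS, 0.455% in the libraries labelled siCHD9siHic5, 0.501% with siBRMsiHic5 and 0.343% with siNSsiNS. With the pair block, 1 of 8 members was called with siHic5siNS (9.26% of all genes) and 1 with siBRMsiHic5 (6.2%). By the blocked edgeR fit 0 were called with siCHD9siNS, where 24.4% of all genes were, with siBRMsiNS (4.39%), in the libraries labelled siCHD9siHic5 (4.86%) and with siNSsiNS (2.52%). The median log2 change of the 8 genes without the block lay between -0.28 (siNSsiNS) and -0.09 (siBRMsiHic5), against medians over all genes of 0.01 and 0.00.

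Averaging the dex response over the 6 siRNA conditions, a comparison added after the values had been seen, gave the only dex call of a member in the edgeR fit with no block. The averaged fits treat the pairs as independent, although libraries of a number may share a day across conditions, so the p-values may overstate the replication. For DUSP5, pair 2 changed by -2.18 with siNSsiNS, -1.32 with siHic5siNS, -1.92 with siCHD9siNS and -1.26 in the libraries labelled siCHD9siHic5. With siBRMsiNS and siBRMsiHic5 it changed by -0.10 and -0.09. HBEGF fell by 1.03 ± 0.20 on the log2 scale (95% interval -1.45 to -0.61), to 48.9% of the vehicle level (edgeR, adjusted p = 0.00101; 6.51e-06 with the pair block). It was the 1 gene of 8 called, where 5.78% of all genes were. An unadjusted p under 0.05 was reached by 4 of 8, and by 2253 of all 15179 genes. Leaving out the libraries numbered 1 in every group gave -0.92 (adjusted p = 0.0658), which no longer passed, although it did with the block (7.37e-06). DUSP5 changed by -0.93 ± 0.30 with no block, short of the threshold (adjusted p = 0.0637), and fell by 0.68 ± 0.14 with it (adjusted p = 0.00149). DUSP1 changed by 0.44 ± 0.19 with no block (adjusted p = 0.254) and rose by 0.58 ± 0.14 with it (adjusted p = 0.00554). The blocked DUSP1 call was lost without all libraries numbered 1 (0.45, adjusted p = 0.114) or 3 (0.45, adjusted p = 0.145); without those numbered 2 it was 0.83 (adjusted p = 5.86e-07), and DUSP1 then passed with no block as well (0.82, adjusted p = 0.000232). SPRY2 fell by 0.32 ± 0.09 with the block (adjusted p = 0.0155), which was lost without the libraries numbered 3 (-0.38, adjusted p = 0.0671). In all, the blocked fit called 4 of 8, against 27.7% of all genes. SPRY4 (-0.38 ± 0.32), DUSP6 (0.05 ± 0.13), SPRED1 (0.01 ± 0.08) and ERRFI1 (-0.03 ± 0.13) did not pass without the block, nor did they with it.

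The second question was whether an siRNA altered the dex response. The change in the HBEGF response with siHic5siNS relative to siNSsiNS was -0.79 ± 0.70 on the log2 scale, with a 95% interval of -2.23 to 0.65 (adjusted p = 1; -0.78 ± 0.41 and 0.682 with the pair block). Relative to siNSsiNS it was -0.69 ± 0.70 with siBRMsiHic5 (-2.13 to 0.74) and between -0.18 and 0.06 with the other 3. With no block, the intervals of those 3 admit changes of more than 1 log2 unit in either direction. With the pair block the estimates of those 3 were 0.05 ± 0.39 with siCHD9siNS, -0.06 ± 0.40 with siBRMsiNS and 0.02 ± 0.39 in the libraries labelled siCHD9siHic5. Across the 7 interactions, 5 against siNSsiNS and 2 against siHic5siNS, edgeR called 0 of the 8 genes in each, with and without the block, and DESeq2 called 0. With no block 0 members had an unadjusted p under 0.05 in any of the 7. Of all 15179 genes, 25 (siBRMsiNS) to 464 (siCHD9siNS, both relative to siNSsiNS) had one. At the adjusted threshold 0% of all genes were called in 6 and 0.00659% in the siCHD9siNS comparison. With the pair block the share of all genes called was 0.184% with siHic5siNS, 3.92% with siCHD9siNS, 0% with siBRMsiNS, 0.0132% in the libraries labelled siCHD9siHic5 and 0% with siBRMsiHic5 relative to siNSsiNS, and 0.105% and 0.264% for the libraries labelled siCHD9siHic5 and for siBRMsiHic5 relative to siHic5siNS. An unadjusted p under 0.05 was then reached by SPRY4 in the libraries labelled siCHD9siHic5 (1.03 ± 0.43, adjusted p = 0.891) and with siBRMsiHic5 (1.06 ± 0.44, adjusted p = 0.596), each relative to siNSsiNS, where the vehicle library numbered 2 held 24.8 CPM, and by no other member. Of all 15179 genes, 794 and 1117 reached it in these comparisons with the block.

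**Figure D3:**
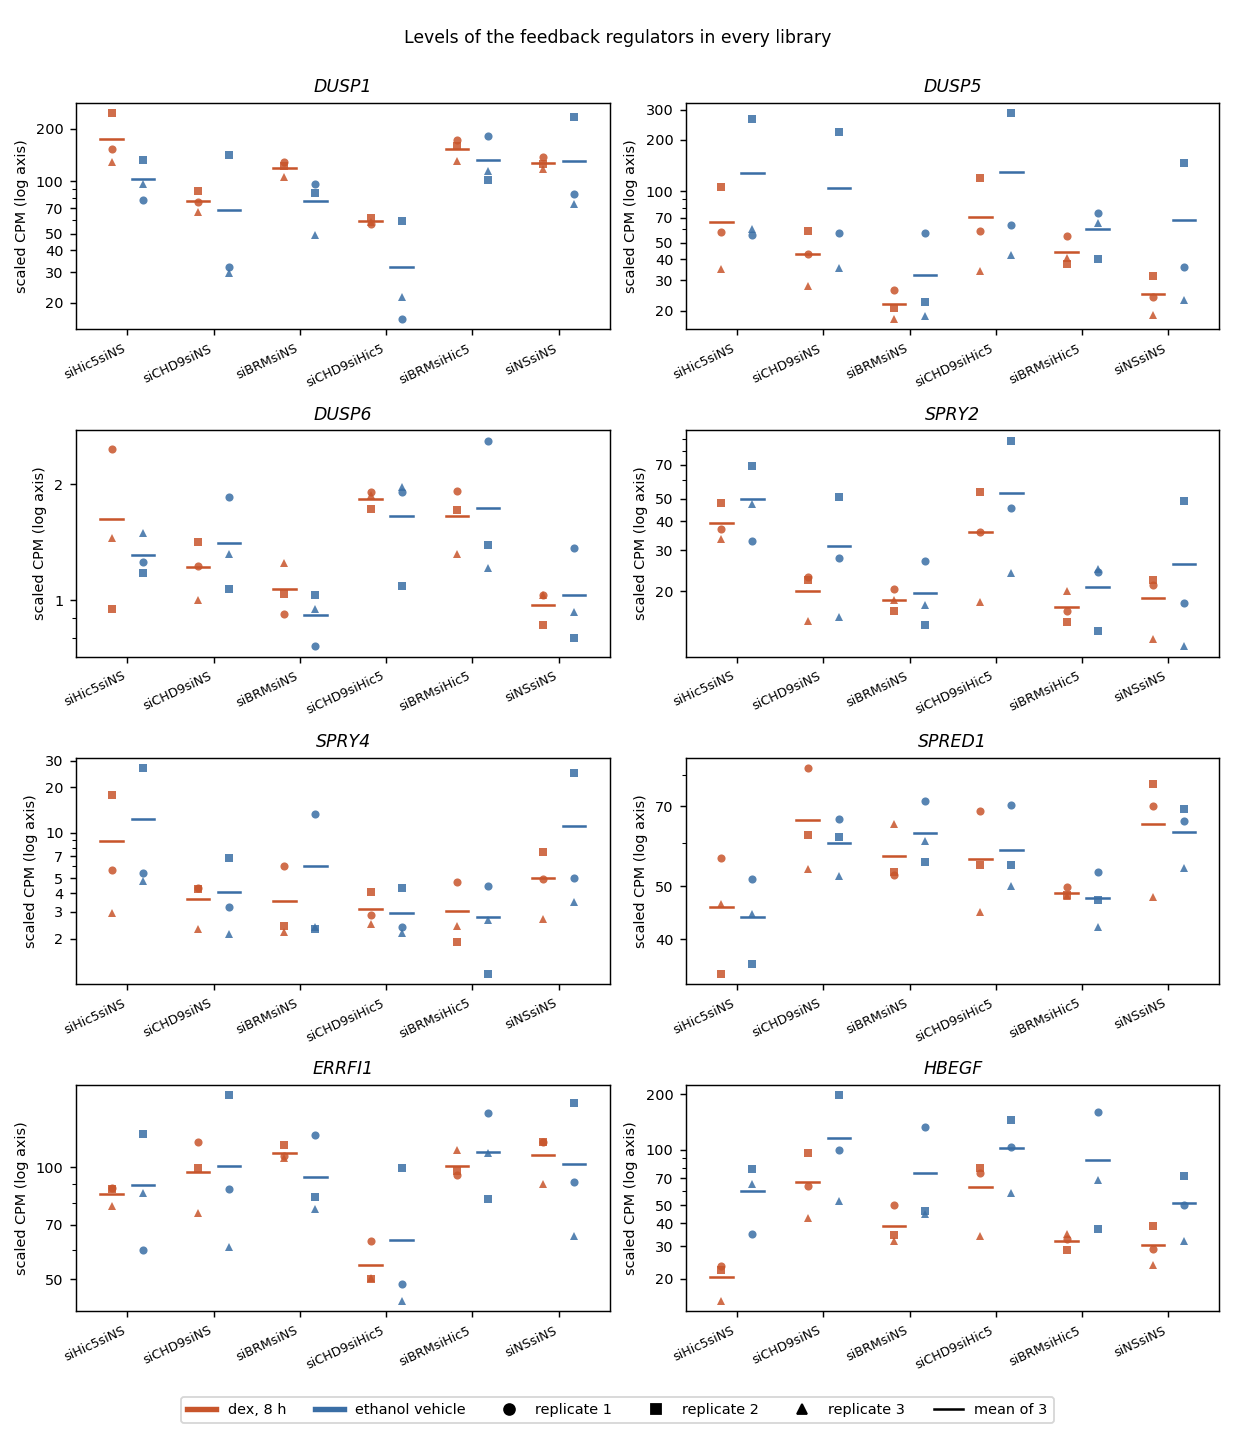
Level of each of the 8 genes in scaled CPM (log axis) in the 36 libraries by siRNA condition, dex to the left of vehicle, with symbols for the replicate number and bars for the mean of 3. The vehicle points of DUSP1, DUSP5, SPRY4 and HBEGF spread further than the dex points; SPRED1 and DUSP6 show no such difference.

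The third question was what the siRNAs did to the genes without dex. The siRNA comparisons share the siNSsiNS libraries, or the siHic5siNS libraries, so they are not independent of each other. DUSP1 gave the smallest adjusted p of any member in vehicle. In vehicle it held 16.1, 59.1 and 21.5 CPM in the libraries labelled siCHD9siHic5, against 77.5, 133 and 96.9 CPM with siHic5siNS and 84.9, 234 and 73.8 CPM with siNSsiNS. The highest of the first 3 lies below every library of the other groups. DUSP1 fell by 2.02 ± 0.49 on the log2 scale relative to siNSsiNS (adjusted p = 0.000995) and by 1.67 ± 0.48 relative to siHic5siNS (adjusted p = 0.00531) in edgeR's test, and both calls held without any 1 of the libraries compared. With siCHD9siNS it held 32.3, 142 and 29.5 CPM, which overlaps siNSsiNS; the change was -0.95 ± 0.47 with no block (adjusted p = 0.125), and with the replicate number as a block DUSP1 fell by 1.01 ± 0.38 (adjusted p = 0.0381). DUSP5 passed in no vehicle comparison. DUSP6 was at 1.91, 1.09 and 1.97 CPM in the libraries labelled siCHD9siHic5 and 1.37, 0.8 and 0.932 CPM with siNSsiNS (0.68 ± 0.31, adjusted p = 0.0652; 0.0363 with the block).

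SPRY4 fell in the libraries labelled siCHD9siHic5 and with siBRMsiHic5, relative to siNSsiNS and to siHic5siNS, but 1 library of siNSsiNS and 1 of siHic5siNS decide this. In vehicle it held 2.37, 4.29 and 2.16 CPM in the libraries labelled siCHD9siHic5 and 4.47, 1.17 and 2.64 CPM with siBRMsiHic5. The siHic5siNS libraries held 5.46, 26.9 and 4.83 CPM and the siNSsiNS libraries 5.04, 24.8 and 3.5 CPM. The siHic5siNS and the siNSsiNS group each have 1 library, numbered 2, more than 4 times above its others. The libraries labelled siCHD9siHic5 and those of siBRMsiHic5 do not overlap siHic5siNS, but both overlap siNSsiNS. Relative to siNSsiNS the fall was 1.92 ± 0.79 in the libraries labelled siCHD9siHic5 (adjusted p = 0.0428) and 2.02 ± 0.80 with siBRMsiHic5 (adjusted p = 0.0373). Without the siNSsiNS vehicle library numbered 2 these values were -0.54 (adjusted p = 0.606) and -0.64 (adjusted p = 0.548). Relative to siHic5siNS SPRY4 fell by 2.08 ± 0.79 (adjusted p = 0.0325) and 2.18 ± 0.80 (adjusted p = 0.0256), and without the siHic5siNS vehicle library numbered 2 the values were -0.81 (adjusted p = 0.437) and -0.91 (adjusted p = 0.383). The calls were lost as well without the libraries numbered 1 or 3 of those labelled siCHD9siHic5 (adjusted p = 0.0965 to 0.121) and without those numbered 2 or 3 of siBRMsiHic5 (0.0688 to 0.135).

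SPRY2 was the one member that passed between siBRMsiHic5 and siHic5siNS in both treatments. In vehicle it held 24.3, 13.5 and 24.9 CPM with siBRMsiHic5 and 33, 69.4 and 47.4 CPM with siHic5siNS, a fall of 1.26 ± 0.47 (adjusted p = 0.0286). In dex it held 16.5, 14.8 and 20.1 CPM with siBRMsiHic5 and 37.2, 47.9 and 33.5 CPM with siHic5siNS, a fall of 1.21 ± 0.47 (adjusted p = 0.0384). The groups overlapped in neither treatment. Over all genes tested, deviations of same-numbered libraries of these groups gave r of 0.02, -0.24 and 0.20 in vehicle and 0.06, -0.13 and 0.22 in dex. The labels do not say whether same-numbered libraries shared a day, and a difference in day between the groups was not tested. Without the siHic5siNS vehicle library numbered 2 the vehicle value was -0.94 (adjusted p = 0.142), and without the siBRMsiHic5 vehicle library numbered 2 it was -1.02 (adjusted p = 0.122). The dex call was lost without any of 5 of its 6 libraries, all but the siHic5siNS library numbered 3, at log2 values of -1.04 to -1.34 (adjusted p = 0.0562 to 0.118). Relative to siNSsiNS, SPRY2 with siBRMsiHic5 changed by -0.32 ± 0.47 in vehicle and -0.12 ± 0.47 in dex (edgeR with no block, adjusted p = 0.593 and 0.851). For siHic5siNS the changes from siNSsiNS were 0.94 ± 0.47 and 1.08 ± 0.47 (adjusted p = 0.0932 and 0.0535). DESeq2 called that dex change (adjusted p = 0.045). In the libraries labelled siCHD9siHic5 the vehicle levels were 45.8, 88.7 and 23.9 CPM, against 17.8, 49 and 11.6 CPM with siNSsiNS, each above the siNSsiNS library of its own number; the change was 1.01 ± 0.47 with no block (adjusted p = 0.0705), and SPRY2 rose by 1.03 ± 0.40 with the replicate number as a block (adjusted p = 0.0314).

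SPRED1 fell with siHic5siNS. It held 51.5, 36.1 and 44.5 CPM in vehicle with siHic5siNS and 65.7, 69.1 and 54 CPM with siNSsiNS, which do not overlap, a fall of 0.51 ± 0.19 (adjusted p = 0.0271). The call was lost without any of 4 of the 6 libraries: without the siHic5siNS libraries numbered 2 or 3 the adjusted p was 0.138 and 0.0537, and without the siNSsiNS libraries numbered 1 or 2 it was 0.0702 and 0.0956, at log2 values of -0.39 to -0.52. In dex SPRED1 was at 56.3, 34.6 and 46.5 CPM with siHic5siNS and 70.1, 76.8 and 47.7 CPM with siNSsiNS, a fall of 0.50 ± 0.19 (adjusted p = 0.0304), with the groups overlapping. That call was lost without the siHic5siNS dex libraries numbered 2 or 3 (adjusted p = 0.188 and 0.0568) or the siNSsiNS dex libraries numbered 1 or 2 (0.0955 and 0.163). ERRFI1 in vehicle was at 48.6, 99.4 and 43.7 CPM in the libraries labelled siCHD9siHic5 and 91.4, 149 and 65.4 CPM with siNSsiNS (-0.68 ± 0.31, adjusted p = 0.0721; 0.0404 with the block). HBEGF in vehicle was at 99.1, 197 and 52.7 CPM with siCHD9siNS and 50.4, 72.4 and 32.2 CPM with siNSsiNS (1.17 ± 0.49, adjusted p = 0.0696), and rose by 1.13 ± 0.42 with the replicate number as a block (adjusted p = 0.0366).

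In most of these siRNA comparisons large parts of the transcriptome were called, so the members' counts must be read against that. In vehicle and with no block, edgeR called 1 of 8 members with siHic5siNS (53.1% of all genes), 2 in the libraries labelled siCHD9siHic5 (52.6%) and 1 with siBRMsiHic5 (48.9%), each relative to siNSsiNS. Relative to siHic5siNS it called 2 in the libraries labelled siCHD9siHic5 (47.7%) and 2 with siBRMsiHic5 (49.4%). Each of these member shares is below the share of all genes called. By edgeR 0 members passed with siCHD9siNS (32.3% of all genes), where 1 had an unadjusted p under 0.05 and DESeq2 called 0, and 0 passed with siBRMsiNS (6.45%), where 0 had an unadjusted p under 0.05 and DESeq2 called 0. Of all 15179 genes, 6484 and 3909 had an unadjusted p under 0.05 there. With the block, where the numbers paired the samples, the counts were 2 with siCHD9siNS (38.1% of all genes) and 5 in the libraries labelled siCHD9siHic5 relative to siNSsiNS (57.3%) and 3 relative to siHic5siNS (52.7%), where SPRED1 was added (0.40 ± 0.16, adjusted p = 0.0337; 0.0862 with no block).

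The same comparisons within dex, where the vehicle libraries are not compared, were added after the levels had been seen. ERRFI1 fell in the libraries labelled siCHD9siHic5, to 63.2, 50.1 and 50.5 CPM, against 117, 117 and 90 CPM with siNSsiNS. The groups do not overlap, and the log2 change was -0.99 ± 0.32 (adjusted p = 0.0102), which passed without any 1 of the libraries. DUSP6 rose there too, at 1.91, 1.72 and 1.87 CPM against 1.03, 0.866 and 1.03 CPM with siNSsiNS (0.91 ± 0.31, adjusted p = 0.0153), but without the siNSsiNS dex library numbered 2 the value was 0.84 (adjusted p = 0.0571). DUSP6 also passed with siBRMsiHic5, at 1.92, 1.71 and 1.32 CPM (0.75 ± 0.31, adjusted p = 0.0486), and with siHic5siNS, at 2.47, 0.95 and 1.45 CPM (0.74 ± 0.31, adjusted p = 0.0471). The siHic5siNS values overlap those of siNSsiNS, and without the siHic5siNS dex library numbered 1 the change was 0.30 (adjusted p = 0.457). Leaving out a siNSsiNS dex library, or the siHic5siNS library numbered 3, also ended that call (adjusted p = 0.0515 to 0.13), and the siBRMsiHic5 call was lost without any library but the siBRMsiHic5 one numbered 3 (adjusted p = 0.0752 to 0.148). DUSP1 in dex was at 56.6, 61.8 and 58.3 CPM in the libraries labelled siCHD9siHic5, below every library of siHic5siNS (153, 245 and 128 CPM) and of siNSsiNS (138, 125 and 117 CPM). It fell by 1.57 ± 0.48 relative to siHic5siNS (adjusted p = 0.00797); the change relative to siNSsiNS was -1.11 ± 0.47 (adjusted p = 0.0517; 0.0158 with the block). Without the siHic5siNS dex library numbered 2 the value relative to siHic5siNS was -1.25 (adjusted p = 0.0516).

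HBEGF in dex was at 74.4, 79.3 and 34.1 CPM in the libraries labelled siCHD9siHic5 and 23.4, 22.5 and 15.2 CPM with siHic5siNS, and its level was higher by 1.62 ± 0.50 in those labelled siCHD9siHic5 (adjusted p = 0.0095), a call that held without any 1 of the libraries. Relative to siNSsiNS the HBEGF change there was 1.04 ± 0.50 by edgeR, with overlapping groups, and did not pass (adjusted p = 0.0816, and 0.0506 with the block). With siCHD9siNS it was at 63.4, 96 and 42.6 CPM, above the 29, 38.8 and 23.7 CPM of siNSsiNS without overlap, but the change of 1.14 ± 0.50 did not pass (adjusted p = 0.109). DUSP5 in dex was at 58.6, 119 and 34.2 CPM in the libraries labelled siCHD9siHic5 and 24.1, 31.7 and 18.8 CPM with siNSsiNS (1.50 ± 0.74, adjusted p = 0.0909), and rose by 1.34 ± 0.55 with the block (adjusted p = 0.039). Without the block, edgeR called 2 of 8 members in dex with siHic5siNS (53.6% of all genes), 2 in the libraries labelled siCHD9siHic5 (51.5%) and 1 with siBRMsiHic5 (45.5%) relative to siNSsiNS. Relative to siHic5siNS the counts were 2 in the libraries labelled siCHD9siHic5 (47.8%) and 1 with siBRMsiHic5 (45.6%). By edgeR 0 passed in dex with siCHD9siNS (18.7%), where 1 had an unadjusted p under 0.05 and DESeq2 called 0, and 0 with siBRMsiNS (11.8%), where 0 had an unadjusted p under 0.05 and DESeq2 called 0. Of all 15179 genes, 4895 and 4442 had an unadjusted p under 0.05 there. With the block, 4 were called in the libraries labelled siCHD9siHic5 relative to siNSsiNS (56.7% of all genes) and 2 relative to siHic5siNS (52.5%). The blocked edgeR fit called 0 with siCHD9siNS (24.4%), where 1 had an unadjusted p under 0.05, as did 5580 of all 15179 genes.

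**Figure D4:**
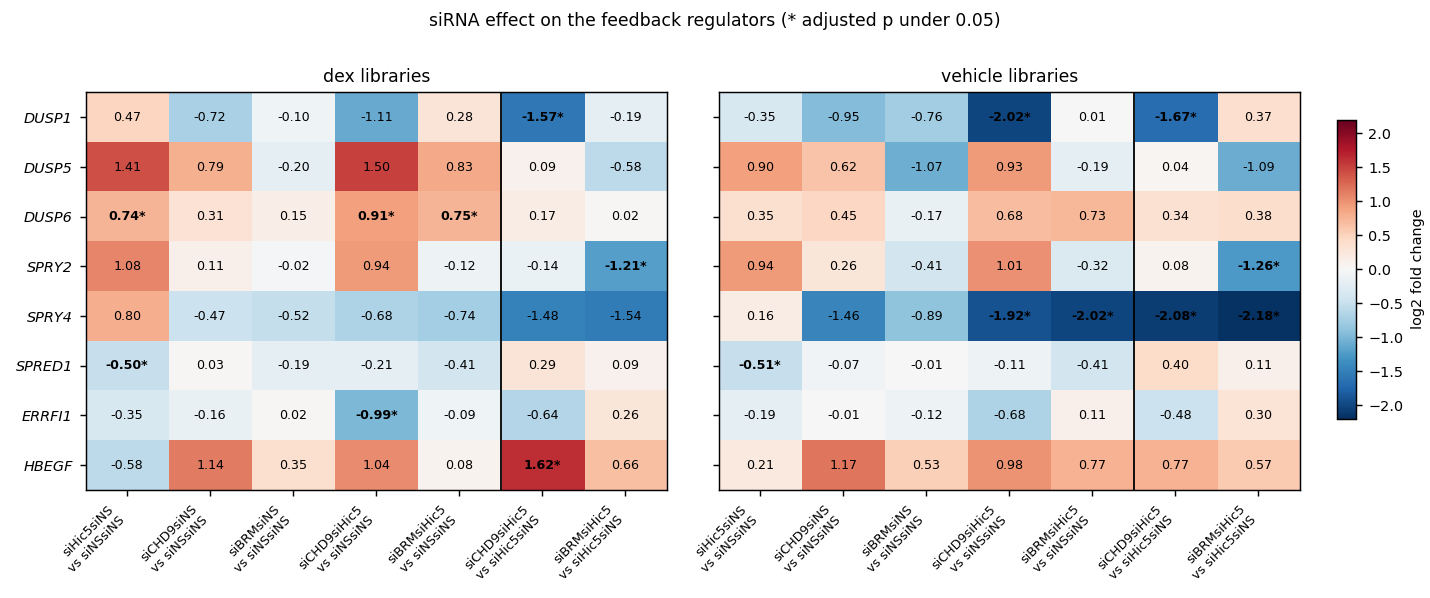
log2 fold change (colour and printed value) of the 8 genes for each siRNA combination over siNSsiNS, or over siHic5siNS right of the line, in dex (left) and vehicle (right); an asterisk marks an adjusted p under 0.05 in the fit with no block. DUSP1 is lower in the libraries labelled siCHD9siHic5 throughout, with the call missing for siNSsiNS in dex, and SPRY4 has its 4 calls in vehicle.

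The rest of the pathway was described by 6 gene lists. Of 12 other genes known as ERK outputs, 11 had a row, and in the averaged dex response with no block, where 5.78% of all genes were called, 6 fell and 0 rose: LIF, a cytokine (-0.66 ± 0.10, adjusted p = 4.43e-05), and, chosen after their values were seen, IL11 (-1.24 ± 0.25, adjusted p = 0.00123), EGR1 (-0.70 ± 0.21, adjusted p = 0.0424), FOSL1 (-0.69 ± 0.21, adjusted p = 0.0431), PHLDA1 (-0.65 ± 0.16, adjusted p = 0.00824) and EPHA4. The median over the 11 was -0.36, against -0.01 over all genes; with the pair block, where 27.7% of all genes were called, 9 fell and 1 rose. Of the 20 genes of the RAS-ERK cascade with a row, 4 rose and 0 fell with no block, among them the MEK gene MAP2K1 (0.31 ± 0.05, adjusted p = 7.58e-05) and the ubiquitin ligase gene CBLB. TGFA, another EGFR ligand, fell by 0.36 ± 0.10 (adjusted p = 0.0332) and was the 1 called of 7 EGFR family genes. DUSP16, a phosphatase for JNK and p38, fell by 0.33 ± 0.08 (adjusted p = 0.00989), as the 1 called of 5 other phosphatases. SPRED2 and SPRED3, relatives of SPRED1, fell by 0.29 ± 0.07 and 0.24 ± 0.06 (adjusted p = 0.00853 and 0.0161), as 2 of 3 other Sprouty and Spred genes. Of 3 sheddase genes, which encode metalloproteinases that can release HBEGF, 0 were called by edgeR with no block, and 1 fell with the pair block.

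In vehicle, the receptor and several other ligand genes were among the genes called with siHic5siNS, where 53.1% of all genes were. With siHic5siNS 5 of 7 EGFR family genes rose and 1 fell relative to siNSsiNS, with a median of 1.12 against -0.01 over all genes. EGFR rose by 1.12 ± 0.17 (adjusted p = 5.59e-06), and the ligand genes TGFA and AREG by 1.58 and 1.56 (adjusted p = 1.49e-05 and 0.00456), while ERBB3, a receptor that pairs with the others, fell by 1.89 ± 0.37 (adjusted p = 0.000107). In the libraries labelled siCHD9siHic5 4 rose and 1 fell, with EGFR up by 1.76 ± 0.18 (adjusted p = 5.62e-09), and with siBRMsiHic5 5 rose and 1 fell. With siCHD9siNS and with siBRMsiNS 1 rose and 1 fell. Of the phosphatases outside the members, DUSP10, which acts on JNK and p38, rose by 2.00 ± 0.28 with siHic5siNS (adjusted p = 1.68e-06) and DUSP9 fell by 2.33 (adjusted p = 0.000543). The cyclin gene CCND1, an ERK output, fell by 2.36 ± 0.30 with siHic5siNS (adjusted p = 3.6e-07), where 1 of 11 output genes rose and 3 fell. Of the cascade, 7 of 20 rose and 2 fell with siHic5siNS. The called shares of the output genes and of the cascade are below the 53.1% of all genes. The sheddase gene ADAM17 fell by 0.69 with siHic5siNS (adjusted p = 0.00135), as 1 of 2 sheddase genes called.

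For each member, the 2 genes whose mean level over the 12 groups followed it most closely were sought among 11553 genes with a mean of at least 5 CPM. Pearson's r over the 12 group means was 0.97 for KRT17 and 0.96 for ATF3 with DUSP5, and 0.96 for TMEM200A and 0.95 for CD70 with HBEGF. It was 0.95 for HAUS3 and 0.94 for MMP15 with DUSP1, 0.96 for CPNE1 and REEP2 with DUSP6, and 0.97 for MOCS3 and ZSWIM4 with SPRY2. SPRY4 was followed by VANGL2 (0.98) and SSBP3 (0.96), SPRED1 by ERCC4 and C21orf91 (0.98 each), and ERRFI1 by UQCRQ and TMSB4X (0.97 each). With so many genes and 12 means that share siRNAs, high values can arise easily. How high they are for genes other than the members was not tested, and the values are given as a description.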

How the data were processed

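Total RNA of 36 libraries (12 groups of 3) was analysed from 1 table of counts per gene. The values are whole-number counts deposited by the authors; per the submitters' processing notes, TopHat2 2.1.1 and edgeR were used with GRCh38, while no source used here names the read counter, its annotation or its strand setting. Reads of a gene and of an RNA antisense to it therefore cannot be told apart. The members and the gene lists were chosen with earlier results of these data known.

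Genes above 1 scaled CPM in at least 3 libraries were kept (15179 of 15186; 30 genes have no symbol). Libraries were scaled by upper-quartile factors, and 12 group means were fitted with edgeR 4.0.16 in R 4.3.3 (limma 3.58.1), using the quasi-likelihood test with 24 residual degrees of freedom. In all, 28 comparisons were made. p-values were adjusted by Benjamini-Hochberg over all genes tested, and under 0.05 was called. Log2 deviations used a pseudocount of 0.5 CPM.

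A second fit took the 18 vehicle-dex pairs as a block (12 residual degrees of freedom), because same-numbered libraries deviated together within each siRNA condition (lowest correlation of any pair 0.46, highest 0.92; 6 of 6 conditions passed). Between siRNA conditions the correlations were -0.24 to 0.72 in vehicle and -0.14 to 0.62 in dex, and the numbers paired the samples in 3 of 7 comparisons in each treatment: siCHD9siNS and siCHD9siHic5 relative to siNSsiNS, and siCHD9siHic5 relative to siHic5siNS. There the replicate number was added as a block (22 residual degrees of freedom). The median biological coefficient of variation was 17.6% with no block and 7.72% with the pair block. No 2 replicates were copies: over the 36 replicate pairs, chi-square divided by its degrees of freedom was at least 9.59.

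Alternatives were DESeq2 1.42.0, TMM factors, no factors, no filter, each library left out, all libraries of a number left out, and legacy quasi-dispersions. The tests were tested on simulated data. Named genes outside the members are up to 4 of each list with the smallest p; others named are said to be chosen after their values were seen. Promoters came from the RefSeq table.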

Additional observations from a re-analysis of the deposited data

How the results depend on the processing

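Limits: each group had 3 replicates, the pooled SD within vehicle groups was above 1 log2 unit for DUSP5 and SPRY4, and DUSP6 rests on 24 to 91 counts a library. The cause of each change below was not tested. The member counts below are given without the share of all genes called under the same alternative. They show how far a count moved and are no result about the members. No called member changed direction under any alternative run. With no block, dropping the filter on low counts changed no count of called members, and TMM factors changed 1, to 3 instead of 2 in the libraries labelled siCHD9siHic5 relative to siNSsiNS in vehicle. Scaling moved the median of all genes by -0.08 to 0.06 on the log2 scale. Without scaling factors 816 genes were higher and 916 lower with siBRMsiNS relative to siNSsiNS in dex, against 1071 and 724 with them.

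Count of the 8 members called in the dex response: with the pair block it was 1 instead of 0 with siHic5siNS and with siBRMsiHic5, and 4 instead of 1 in the average, the same 3 counts being found with legacy quasi-dispersions, TMM factors or no factors in the blocked fit. DESeq2 called 2 in the average. Leaving out the libraries numbered 1 gave 0 in the average with no block; blocked, it gave 3 in the average and 1 with siHic5siNS, with siCHD9siNS, in the libraries labelled siCHD9siHic5 and with siNSsiNS. Leaving out those numbered 2 gave 2 in the average and 1 in the libraries labelled siCHD9siHic5 with no block; blocked, it gave 4 in the average, 2 with siHic5siNS and 1 in each of the other 5 conditions. Leaving out those numbered 3 gave 2 in the blocked average. Leaving out 1 library gave 1 to 2 in the average, and leaving out 1 pair in the blocked fit gave 4 to 5. In the blocked fit without 1 pair the count was 1 in every case with siHic5siNS, and 0 to 1 with siCHD9siNS, with siBRMsiHic5, in the libraries labelled siCHD9siHic5 and with siNSsiNS. The block changed no call in the 7 interactions.

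Count of members called in vehicle: with the replicate number as a block it was 2 instead of 0 with siCHD9siNS, and 5 instead of 2 in the libraries labelled siCHD9siHic5 relative to siNSsiNS. The numbers did not pair the samples in 4 of the 7 comparisons. There the block gave 2 instead of 1 with siHic5siNS relative to siNSsiNS (SPRY2 added), where 53.1% of all genes were called with no block. The count was 3 instead of 1 with siBRMsiHic5 relative to siNSsiNS (DUSP6 and SPRED1 added), where 48.9% were. Without the libraries numbered 1 it was 1 in the libraries labelled siCHD9siHic5 relative to siNSsiNS and 0 relative to siHic5siNS, and 1 with siBRMsiHic5 relative to siHic5siNS. Without those numbered 2 it was 1 with siCHD9siNS, 3 with siBRMsiHic5 relative to siNSsiNS and 1 in the libraries labelled siCHD9siHic5 relative to siHic5siNS. Without those numbered 3 it was 1 in the libraries labelled siCHD9siHic5 and 0 with siBRMsiHic5 relative to siNSsiNS, and 0 in the libraries labelled siCHD9siHic5 relative to siHic5siNS. Leaving out 1 library gave 0 to 2 with siHic5siNS, 0 to 1 with siCHD9siNS, 1 to 4 in the libraries labelled siCHD9siHic5 and 0 to 2 with siBRMsiHic5 relative to siNSsiNS, and 1 to 3 and 0 to 2 in the libraries labelled siCHD9siHic5 and with siBRMsiHic5 relative to siHic5siNS.

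Count of members called in dex: with the replicate number as a block it was 4 instead of 2 in the libraries labelled siCHD9siHic5 relative to siNSsiNS. Where the numbers did not pair the samples, the count was 4 instead of 2 with siHic5siNS (DUSP5 and SPRY2 added), where 53.6% of all genes were called with no block. It was 2 instead of 1 with siBRMsiHic5 (SPRED1 added), where 45.5% were. Without scaling factors it was 1 with siHic5siNS and 3 in the libraries labelled siCHD9siHic5 relative to siNSsiNS. Without the libraries numbered 1 it was 1 with siHic5siNS, 1 in the libraries labelled siCHD9siHic5 and 0 with siBRMsiHic5 relative to siNSsiNS, and 0 in the libraries labelled siCHD9siHic5 and with siBRMsiHic5 relative to siHic5siNS. Without those numbered 2 it was 1 with siHic5siNS, and 0 with siBRMsiHic5 relative to both. Without those numbered 3 it was 1 with siHic5siNS and 1 in the libraries labelled siCHD9siHic5 relative to siNSsiNS. Leaving out 1 library gave 0 to 1 with siHic5siNS, 1 to 4 in the libraries labelled siCHD9siHic5 and 0 to 1 with siBRMsiHic5 relative to siNSsiNS, and 1 to 2 and 0 to 1 in the libraries labelled siCHD9siHic5 and with siBRMsiHic5 relative to siHic5siNS.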
